A study of Mus musculus with 12 samples.

Results

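Genes of cholesterol supply, 8 in all, were followed through 12 RNA sequencing libraries of CT26 cells, a colon carcinoma line of BALB/c mice that is grown as a pure culture. The genes were taken by name from the pathway. They are 6 enzymes of cholesterol synthesis (HMGCS1, IDI1, FDFT1, SQLE, LSS and DHCR7) and 2 genes of its control (SREBF2 and INSIG1), out of 23636 gene symbols in the table, and all 8 were among the 11878 genes that passed the filter on low values. The libraries form 4 groups of 3 biological replicates. No treatment cells received neither agent, CX3CL1 cells received the recombinant chemokine CX3CL1 (fractalkine, the ligand of the receptor CX3CR1) at 2 µg/ml, IFN-γ cells received the cytokine interferon-γ at 100 ng/ml, and CX3CL1+IFN-γ cells received both, with 8 hours given as the time of treatment. The study's text describes CX3CL1 as added after the cytokine and names TNF-α beside IFN-γ there, while the labels name IFN-γ alone, and the interval between the additions is not given. The study added CX3CL1 to ask which genes its signal changes in the tumor cells, and added it with IFN-γ to ask whether the cytokine alters that response.

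Cells make cholesterol from acetyl-CoA in a long chain of reactions. HMGCS1 makes HMG-CoA, which is then reduced to mevalonate, IDI1 interconverts the isoprenoid building blocks, and FDFT1 joins them into squalene. SQLE oxidizes squalene, LSS closes the sterol rings to lanosterol, and DHCR7 acts at the end of the pathway. The transcription factor SREBP-2, encoded by SREBF2, switches on most of these enzymes when sterol in the endoplasmic reticulum is low, and INSIG1 holds its escort protein SCAP in that compartment when sterol is plentiful, while being a target of SREBP itself. Interferons are known to lower sterol synthesis in macrophages, and the same genes are often highly active in tumor cells.

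Levels are given as TPM, a unit of transcript abundance that sets each library to 1000000 and adjusts for gene length, so that levels of different genes can be set side by side but read depth is unknown. TPM are relative, so the value of a gene can also fall when other transcripts rise. In these bulk samples, fewer cells with a transcript and less of it per cell cannot be told apart. Differences were tested as log2(TPM + 1) with limma, which borrows the spread of all genes, with p-values adjusted by Benjamini-Hochberg over the genes tested. Calls were made where the adjusted p was under 0.05, and log2 fold changes below are on the log2(TPM + 1) scale. With 3 libraries a group, the smallest p of an exact permutation test (two-sided) is 0.1, and calls therefore depend on the pooled spread.

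On the mouse genome GRCm38 (GENCODE vM21), the enzyme genes lie apart. Hmgcs1 is at chr13:119690379-119708260 and Idi1 at chr13:8885501-8892451, both on the plus strand. Fdft1 is at chr14:63145150-63179578 on the minus strand. Sqle is at chr15:59315077-59331192, Lss at chr10:76531588-76557138 and Dhcr7 at chr7:143823145-143848410, all on the plus strand. The control genes are also on the plus strand, with Srebf2 at chr15:82147181-82205379 and Insig1 at chr5:28071363-28078662. Fdft1 overlaps Ctsb on the opposite strand, and whether the strand was used in counting is not given in the sources used here. CTSB, a lysosomal protease, was at 196 ± 30.1 TPM (SD, n = 3) without treatment and 255 ± 28.9 TPM (n = 3) with IFN-γ, the opposite order to FDFT1.

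Sequence around the start of 6 of the 8 genes, in 8 windows, was found among the RefSeq promoters of GRCm38.p6, which hold 250 bases before and 50 bases after each start. FDFT1 and SQLE were not matched. The windows were searched on both strands for the letters of a sterol regulatory element (TCACNCCAC), the E-box CACGTG, which SREBPs can also bind, the CCAAT box (CCAAT), the GC box (GGGCGG) and the interferon-γ activated site known as GAS (TTCNNNGAA). The first 4 are shown or counted because SREBPs act together with factors that bind CCAAT and GC boxes, and the last because IFN-γ acts on genes through it. A stretch of 150 bases that ends before the first annotated transcribed base is printed for 4 of the genes, 5′ to 3′ on the plus strand, with matches to TCACNCCAC, CACGTG and CCAAT (or its complement ATTGG) in capitals. The stretches lie at chr13:119690201-119690350 for HMGCS1, chr10:76531438-76531587 for LSS, chr5:28071213-28071362 for INSIG1 and chr15:82147031-82147180 for SREBF2.
HMGCS1: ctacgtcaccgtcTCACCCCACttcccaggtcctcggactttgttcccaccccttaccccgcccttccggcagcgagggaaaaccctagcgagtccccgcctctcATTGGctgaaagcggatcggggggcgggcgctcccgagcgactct
LSS: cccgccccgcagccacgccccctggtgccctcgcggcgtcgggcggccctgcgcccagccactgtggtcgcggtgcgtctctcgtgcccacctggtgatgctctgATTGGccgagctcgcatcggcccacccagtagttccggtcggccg
INSIG1: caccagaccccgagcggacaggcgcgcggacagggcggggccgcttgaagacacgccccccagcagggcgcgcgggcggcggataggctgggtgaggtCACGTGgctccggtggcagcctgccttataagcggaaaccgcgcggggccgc
SREBF2: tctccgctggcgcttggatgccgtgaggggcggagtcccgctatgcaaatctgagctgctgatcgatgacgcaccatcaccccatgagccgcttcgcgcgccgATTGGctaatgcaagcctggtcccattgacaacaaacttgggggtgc

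HMGCS1 was the 1 gene of 6 whose window held TCACNCCAC, with its first base 137 bases before the RefSeq start, against 1.24% of all 32851 windows. CCAAT was found in 6 of 6 and in 37.4% of all windows, and GGGCGG in 6 of 6 and in 35.7%. The E-box was found in DHCR7 and INSIG1 and in 7.15% of all windows, and TTCNNNGAA in 0 of 6 against 8.3%. A gene was counted if any of its windows held the letters, while the shares are of windows. DHCR7 had more than 1 window. Its CCAAT matches lay in a window starting at chr7:143829964, inside the annotated gene, and its E-box in one starting at chr7:143823149. No match shared a base with another. These are matches of letters, and binding was not measured.

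In untreated cells the order of the levels fell into 4 steps. SQLE at 297.7 ± 51.3 TPM and HMGCS1 at 257.0 ± 65.6 TPM (mean ± SD, n = 3) were the highest, and only 4.5% and 5.29% of the genes tested had a higher level. INSIG1 at 124.9 ± 31.3 TPM and SREBF2 at 122.0 ± 8.79 TPM came next, then IDI1 at 59.1 ± 7.62 TPM and FDFT1 at 58.0 ± 5.33 TPM, and then DHCR7 at 40.5 ± 3.96 TPM and LSS at 35.0 ± 3.15 TPM. The libraries overlapped between the 2 genes of each step and did not overlap between steps.

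The enzymes were lower with IFN-γ. All 6 enzymes and INSIG1 were called lower in IFN-γ than in untreated cells, 7 of the 8 genes, where 1.94% of all genes tested were called lower and 5.91% higher. The same 7 genes were called lower when IFN-γ was present beside CX3CL1, compared with CX3CL1 alone, where 0.935% of all genes were called lower and 3.76% higher. These 2 comparisons share no library, although the spread was pooled over all 12. The remaining gene, SREBF2, was not called in either, although its libraries did not overlap between the groups.

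**Figure D1:**
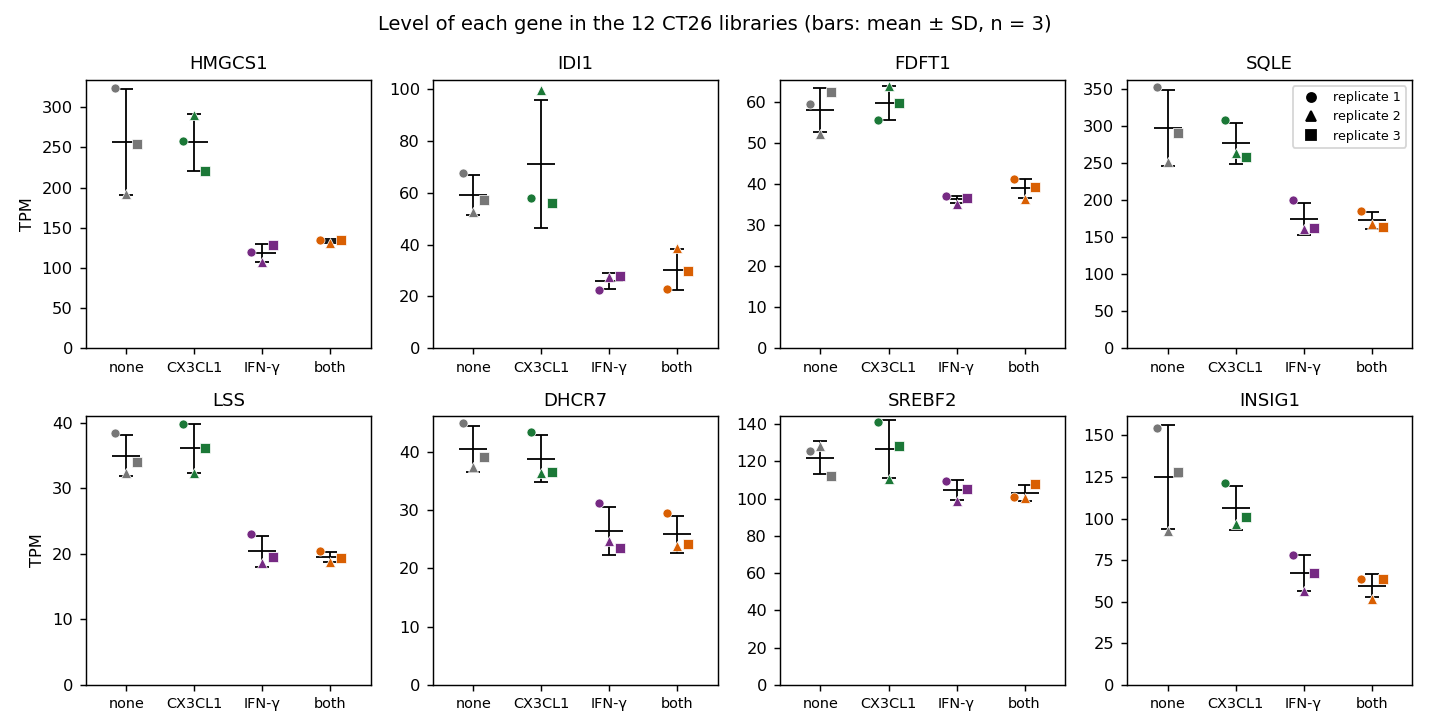
TPM (vertical axes, each from 0) of the 8 genes in the 12 libraries, with 1 point per library shaped by replicate number and horizontal and vertical bars for the mean and SD of 3 libraries. In every panel the 3 IFN-γ libraries and the 3 CX3CL1+IFN-γ libraries (both) lie below all 6 libraries without IFN-γ. The share of all genes tested with this order was not counted. The gap is narrowest for SREBF2, between 109.6 and 110.4 TPM.

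HMGCS1, which makes HMG-CoA, had untreated levels of 323.6, 192.5 and 254.9 TPM, and CX3CL1 cells had 258.5, 291.1 and 220.2 TPM. The gene was at 120.3, 106.9 and 128.5 TPM with IFN-γ and at 134.2, 130.6 and 135.2 TPM with both agents. All 6 libraries with IFN-γ were lower than all 6 without it, and the 3 libraries with both agents were above the 3 with IFN-γ alone. The mean with IFN-γ was 46.1% of the untreated mean, a log2 fold change of -1.08 ± 0.16 (SE, adjusted p = 8.2e-04 by limma). Beside CX3CL1, the IFN-γ effect was -0.93 ± 0.16 (adjusted p = 0.00495).

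IDI1, the isomerase of the isoprenoid units, was at 67.47, 52.54 and 57.36 TPM in untreated cells, at 57.85, 99.75 and 56.16 TPM with CX3CL1, at 22.46, 27.4 and 27.89 TPM with IFN-γ and at 22.77, 38.65 and 29.61 TPM with both. It had the largest log2 fold changes of the 8 genes in both IFN-γ comparisons. Against untreated cells the change was -1.16 ± 0.22 (adjusted p = 0.00555), with an IFN-γ mean of 43.8% of the untreated one. Beside CX3CL1 it was -1.18 ± 0.22 (adjusted p = 0.00784). Replicate 2 was the highest library of both CX3CL1 groups.

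FDFT1, squalene synthase, was at 59.5, 52.1 and 62.4 TPM without treatment and at 55.7, 64.0 and 59.8 TPM with CX3CL1. The IFN-γ libraries were at 37.0, 35.2 and 36.5 TPM and those with both agents at 41.1, 36.4 and 39.3 TPM. The groups with and without IFN-γ were well apart, and the IFN-γ group had the narrowest spread, 0.935 TPM (SD). The log2 fold change was -0.66 ± 0.10 (adjusted p = 6.6e-04) against untreated cells and -0.61 ± 0.10 (adjusted p = 0.00288) beside CX3CL1.

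SQLE, squalene epoxidase, was the most abundant of the 8 in every group. It was at 352.4, 250.7 and 290.1 TPM in untreated cells, at 307.8, 263.9 and 257.7 TPM with CX3CL1, at 200.0, 161.4 and 162.4 TPM with IFN-γ and at 185.6, 167.4 and 164.2 TPM with both. The highest library with IFN-γ lay below the lowest without it. The changes were -0.76 ± 0.13 (adjusted p = 0.00284) and -0.68 ± 0.13 (adjusted p = 0.0104) without and with CX3CL1.

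LSS, lanosterol synthase, was at 38.45, 32.33 and 34.07 TPM in untreated cells and at 39.8, 32.3 and 36.1 TPM with CX3CL1. With IFN-γ it was at 23.0, 18.6 and 19.5 TPM, and with both agents at 20.36, 18.8 and 19.34 TPM. The groups with and without IFN-γ did not overlap, and the mean with both agents was 54.0% of the CX3CL1 mean. LSS changed by -0.75 ± 0.11 (adjusted p = 9.0e-04) against untreated cells and by -0.85 ± 0.11 (adjusted p = 9.4e-04) beside CX3CL1.

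DHCR7, which reduces 7-dehydrocholesterol, was at 44.9, 37.4 and 39.1 TPM in untreated cells, at 43.4, 36.4 and 36.6 TPM with CX3CL1, at 31.15, 24.62 and 23.5 TPM with IFN-γ and at 29.5, 23.8 and 24.2 TPM with both. Replicate 1 was the highest in each of the 4 groups, and the groups with and without IFN-γ did not overlap. CD68, a lysosomal protein abundant in macrophages, was also highest in replicate 1 of each group, at 16.2 to 27.0 TPM against 7.95 to 11.6 TPM in replicates 2 and 3, and its part in these values was not tested. The changes were the smallest of the enzymes, -0.60 ± 0.13 (adjusted p = 0.0132) and -0.57 ± 0.13 (adjusted p = 0.0275). The first call was lost without No treatment replicate 1 (adjusted p = 0.0556), IFN-γ replicate 2 (0.0555) or IFN-γ replicate 3 (0.0756). The second was lost without CX3CL1 replicate 1 (0.0952), CX3CL1 replicate 3 (0.0536), CX3CL1+IFN-γ replicate 2 (0.0798) or CX3CL1+IFN-γ replicate 3 (0.121), with only the 6 libraries compared in the fit (0.0776) and with no filter (0.0501).

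INSIG1, the sterol-dependent anchor of SCAP, was at 154.6, 92.3 and 127.8 TPM in untreated cells and at 121.5, 96.5 and 100.9 TPM with CX3CL1. With IFN-γ it was at 78.1, 56.3 and 67.1 TPM, and with both agents at 63.75, 51.7 and 63.39 TPM. The libraries with IFN-γ were all lower than those without it. INSIG1 changed by -0.87 ± 0.18 (adjusted p = 0.00895) against untreated cells and by -0.82 ± 0.18 (adjusted p = 0.0193) beside CX3CL1. The second call was lost without CX3CL1 replicate 1 (adjusted p = 0.0719), CX3CL1+IFN-γ replicate 2 (0.062) or CX3CL1+IFN-γ replicate 3 (0.0531), and with no filter (0.0515). That of SQLE was lost without CX3CL1+IFN-γ replicate 3 (0.0572).

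SREBF2, which encodes SREBP-2, was at 125.7, 128.4 and 112.0 TPM in untreated cells and at 141.2, 110.4 and 128.2 TPM with CX3CL1. Its levels were 109.6, 98.8 and 105.2 TPM with IFN-γ and 100.7, 100.6 and 108.0 TPM with both. The lowest library without IFN-γ, at 110.4 TPM, was just above the highest with it, at 109.6 TPM. The log2 fold change was -0.22 ± 0.10 (95% interval -0.44 to 0.0001, adjusted p = 0.228) against untreated cells and -0.29 ± 0.10 (interval -0.51 to -0.07, adjusted p = 0.144) beside CX3CL1. Without CX3CL1 replicate 2 the second change was -0.38 and was called (adjusted p = 0.0311), so that 8 of 8 genes were then called lower.

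**Figure D2:**
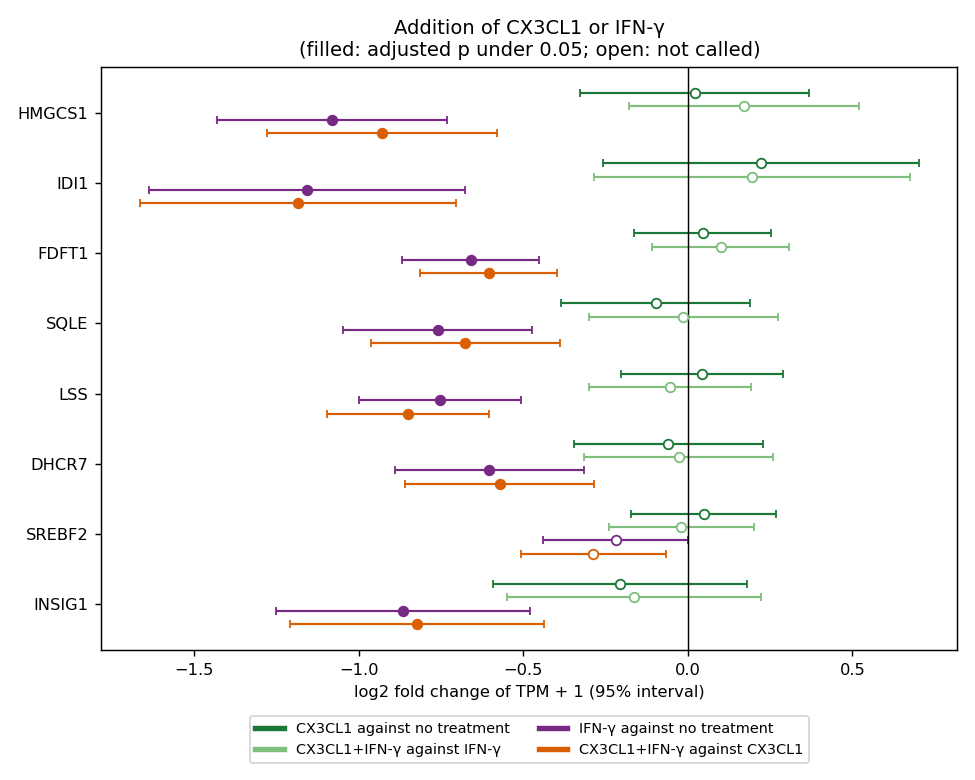
Log2 fold change of TPM + 1 (horizontal axis) with its 95% interval for each of the 8 genes in 4 comparisons, 2 that add CX3CL1 (greens) and 2 that add IFN-γ (purple and orange); filled points passed an adjusted p of 0.05. The CX3CL1 effects lie between -0.21 and 0.22, and the IFN-γ effects between -1.18 and -0.22.

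In both IFN-γ comparisons the 3 libraries with the cytokine lay below the 3 without it for 8 of the 8 genes. Over all genes tested this held for 13.7% against untreated cells and for 5.48% beside CX3CL1. The share with every library that received IFN-γ below every library without it was not counted. The median log2 fold change of the 8 genes was -0.76 and -0.75, and that of all genes tested 0.032 and 0.045. Only 22 of the 11878 genes had a lower log2 fold change than IDI1 against untreated cells and 12 beside CX3CL1, and 32 and 28 had a lower one than HMGCS1. SREBF2 was the least extreme of the 8, with 13.4% and 5.72% of all genes tested lower. The split of all calls depended on the scaling. Against untreated cells 702 genes were higher and 230 lower, which became 640 and 351 under median-ratio scaling and 569 and 538 under quantile normalization, and 7 of the 8 genes were called lower each time. Beside CX3CL1 the numbers were 447 and 111, then 357 and 187, and 352 and 224, again with 7 of the 8 genes. With the replicate number as a block the calls over all genes rose from 932 to 1929 and from 558 to 1369, and 7 of the 8 genes were called in each.

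**Figure D3:**
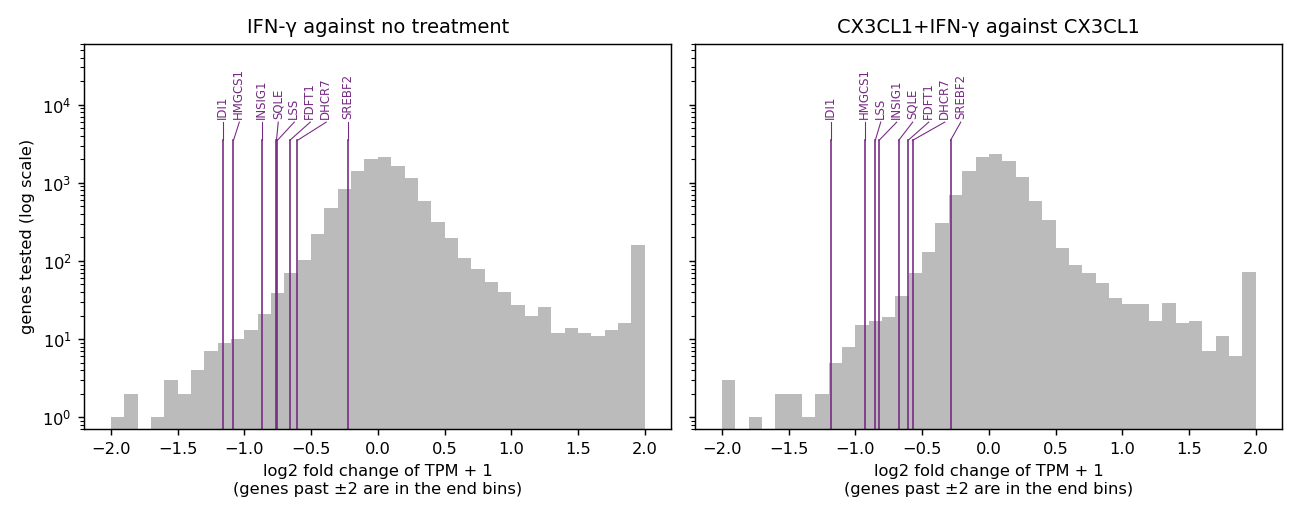
Number of genes tested (vertical log axis) in bins of the log2 fold change of TPM + 1 (horizontal axis, with changes past 2 in the end bins) for the 2 comparisons that add IFN-γ, with a line at each of the 8 genes. IDI1 and HMGCS1 stand in the thin lower tail, with 22 and 32 genes lower against untreated cells, and SREBF2 stands at the edge of the main peak.

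The order of the levels changed with IFN-γ. SQLE stayed first at 174.6 ± 22.0 TPM (n = 3), followed by HMGCS1 at 118.6 ± 10.9 TPM, whose range overlapped that of SREBF2 at 104.6 ± 5.42 TPM. INSIG1, level with SREBF2 in untreated cells, was at 67.2 ± 10.9 TPM and no longer overlapped it. FDFT1, level with IDI1 in untreated cells, was at 36.2 ± 0.935 TPM, above DHCR7 at 26.4 ± 4.13 TPM, IDI1 at 25.9 ± 3.00 TPM and LSS at 20.4 ± 2.33 TPM, of which neighbours overlapped. The 8 genes together summed to between 838.1 and 1167 TPM without treatment, 895.8 to 1026 TPM with CX3CL1, 529.3 to 621.7 TPM with IFN-γ and 567.8 to 598.0 TPM with both agents.

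CX3CL1 gave no call for these genes. Compared with untreated cells, 0 of the 8 were called by limma and 0 had an unadjusted p under 0.05, while 1.95% of all genes were called. The log2 fold changes ran from -0.21 for INSIG1 to 0.22 for IDI1, with an adjusted p of 1 for each, and the 95% intervals of the 8 genes together reached from -0.59 to 0.70. The value of IDI1 rested on CX3CL1 replicate 2, which had 99.8 TPM, and was -0.04 without it. That library stood apart from its group, with a median absolute log2 difference over genes of 0.266 and 0.262 from the other two against 0.141 between them. Added to IFN-γ, CX3CL1 again gave 0 calls and 0 unadjusted p under 0.05 among the 8, where 0.362% of all genes were called. The changes ran from -0.16 to 0.19 and their intervals from -0.55 to 0.67. HMGCS1, whose 3 libraries with both agents were all above those with IFN-γ alone, changed by 0.17 ± 0.16 (adjusted p = 0.975). It was the 1 gene of the 8 that separated in this comparison, and the share of all genes that did so was not counted. With the replicate block, which here raised the calls over all genes from 43 to 95, the count for the 8 genes stayed at 0.

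The interaction, which asks whether the CX3CL1 effect differs with and without IFN-γ, was called for 0 of the 8 genes and for 0.0% of all genes tested. At an unadjusted p under 0.05 it counted 0 of the 8 genes and 273 of all genes. With the replicate block 52 of all genes and 0 of the 8 were called. The estimates for the 8 genes ran from -0.10 for LSS to 0.15 for HMGCS1 on the log2 scale, with 95% intervals that were widest for IDI1 (-0.71 to 0.65) and narrower for FDFT1 (-0.24 to 0.35) and SREBF2 (-0.38 to 0.24).

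With both agents against none, a comparison that shares its libraries with the others, 7 of the 8 genes were called lower, where 3.72% of all genes were called lower and 8.21% higher. The log2 fold changes were -0.91 for HMGCS1, -0.96 for IDI1, -0.56 for FDFT1, -0.77 for SQLE, -0.81 for LSS, -0.63 for DHCR7 and -1.03 for INSIG1. SREBF2 was at -0.24 (adjusted p = 0.164). The call of IDI1 was lost without CX3CL1+IFN-γ replicate 1 (adjusted p = 0.0549). The all-gene split of 975 higher and 442 lower became 803 and 887 under quantile normalization.

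The other enzymes of the pathway moved in the same direction under IFN-γ. Of 15 listed, 14 were tested, and 11 were called lower and 0 higher against untreated cells, with a median log2 fold change of -0.78. Beside CX3CL1, 10 were called lower and 0 higher, with a median of -0.67. Of all genes tested, 1.94% and 0.935% were called lower in these comparisons and 5.91% and 3.76% higher. With the replicate block the numbers of these enzymes called lower were 13 and 12. The block also raised the lower calls over all 11878 genes, from 230 to 576 and from 111 to 334. ACAT2, which makes acetoacetyl-CoA at the start of the pathway, was at 163.9 ± 11.6 TPM without treatment and 78.2 ± 5.14 TPM with IFN-γ (n = 3 each), a log2 fold change of -1.06 ± 0.09 (adjusted p = 7.6e-06). The counting of reads shared with similar copies, such as ACAT3, is not described in the sources used here.

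NSDHL and MSMO1, which remove methyl groups from the sterol ring, changed by -1.01 ± 0.10 (adjusted p = 3.8e-05) and -0.97 ± 0.12 (adjusted p = 1.5e-04). ACAT2, NSDHL and MSMO1 were also called lower beside CX3CL1, with log2 fold changes from -1.04 to -0.92. MVK, LBR and HSD17B7 were not called against untreated cells, at -0.42 (adjusted p = 0.061), -0.25 (0.276) and -0.72 (0.0851). Beside CX3CL1, LBR (-0.30, adjusted p = 0.247), HSD17B7 (-0.75, 0.0975), EBP (-0.29, 0.135) and SC5D (-0.38, 0.119) were not called.

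CX3CL1 called 0 of these 14 enzymes with or without IFN-γ, and 3 and 1 had an unadjusted p under 0.05, against 8.07% and 4.35% of all genes tested. SC5D, the sterol desaturase that acts just before DHCR7, had the smallest p. It went from 150.2 ± 14.8 TPM in untreated cells to 208.6 ± 38.5 TPM with CX3CL1, and from 104.7 ± 5.80 TPM with IFN-γ to 158.6 ± 11.5 TPM with both. In each case the 3 libraries of SC5D with CX3CL1 were above the 3 without it. Of the 14 enzymes, 1 was all above and 2 all below against untreated cells, and 2 were all above and 2 all below beside IFN-γ. The share of all genes that separated in this way was not counted. The log2 fold changes of 0.46 ± 0.13 and 0.59 ± 0.13 missed the threshold (adjusted p = 0.113 and 0.0917). With both agents against none SC5D was at 0.08, the 1 enzyme of the 14 with a positive value there.

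**Figure D4:**
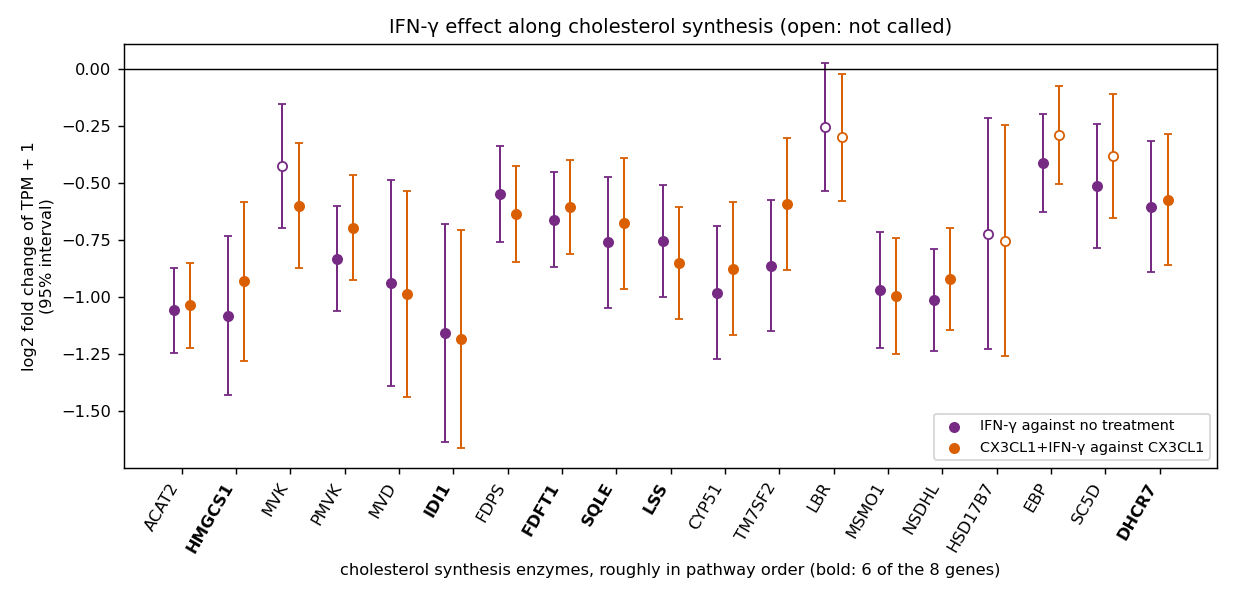
Log2 fold change of TPM + 1 with its 95% interval (vertical axis) for 19 cholesterol synthesis enzymes set roughly in pathway order, with the 6 enzymes described gene by gene in bold and open points for values that were not called. All 19 estimates are below 0 in both comparisons that add IFN-γ, and those of LBR, which also serves the nuclear envelope, are among the smallest.

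Of 9 genes that process SREBP or serve sterol-controlled protein turnover, 0 were called by limma in either IFN-γ comparison, a count near the share of all genes called. An unadjusted p under 0.05 was found for 3 and 2 of them, against 22.0% and 17.7% of all genes tested. Their median log2 fold changes were -0.026 and -0.028. SCAP, the sterol sensor that escorts SREBP, was at 0.09 and 0.02 on the log2 scale, and SREBF1, which encodes SREBP-1, at 0.09 and -0.02. INSIG2, the relative of INSIG1, was at -0.34 (adjusted p = 0.137) and -0.19 (0.494). MBTPS2, a protease that releases SREBP, was at -0.45 (0.155) and -0.43 (0.218). SYVN1, a ubiquitin ligase of the endoplasmic reticulum, was at 0.46 (0.0908) and 0.49 (0.0941), and was called higher with both agents against none (0.51, adjusted p = 0.0465).

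Uptake and transport genes moved both ways. Of 7 tested, 2 were called higher and 1 lower with IFN-γ against untreated cells and again beside CX3CL1, where 5.91% and 3.76% of all genes were called higher and 1.94% and 0.935% lower. With both agents against none, 2 were higher and 3 lower, the latter including the lipoprotein receptors SCARB1 (-0.33, adjusted p = 0.0443) and LRP1 (-0.69, adjusted p = 0.0301). NPC2 and NPC1, which move cholesterol out of lysosomes, rose. NPC2 went from 111.9 ± 19.1 to 252.8 ± 31.9 TPM, a log2 fold change of 1.17 ± 0.17 (adjusted p = 6.6e-04), and NPC1 from 21.6 ± 3.00 to 34.4 ± 4.73 TPM, by 0.65 ± 0.13 (adjusted p = 0.00847). STARD4, a sterol carrier that is itself an SREBP target, changed by -0.66 ± 0.13 (adjusted p = 0.00739).

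A further list held genes of the sterol-sensing receptor LXR and of sterol export or esterification. Of its 7 tested, 3 were called higher with IFN-γ against untreated cells and 2 beside CX3CL1, with 0 lower. Of all genes, 5.91% and 3.76% were called higher. ABCA1, which exports cholesterol, went from 14.1 ± 1.96 to 22.65 ± 4.01 TPM, by 0.64 ± 0.16 (adjusted p = 0.0309), and changed by 0.87 ± 0.16 beside CX3CL1 (adjusted p = 0.00811). SOAT1, which makes cholesteryl esters, went from 95.8 ± 15.9 to 150.7 ± 8.05 TPM, by 0.66 ± 0.11 (adjusted p = 0.00275), and changed by 0.47 ± 0.11 beside CX3CL1 (adjusted p = 0.0338). ABCG1 was called against untreated cells only, at 0.39 (adjusted p = 0.0319) and 0.24 (0.223), and the difference between these effects was not called. Its means were near the floor, at 0.149 TPM untreated, 0.164 with CX3CL1, 0.5065 with IFN-γ and 0.377 with both. It reached the filter of 0.2 TPM only through the groups with IFN-γ, so the filter favoured its place among the 3 called. CH25H, which makes 25-hydroxycholesterol from cholesterol, was listed at 0 in all 12 libraries.

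Of 9 fatty acid genes that SREBP-1 is known to drive, 5 were called lower with IFN-γ against untreated cells, 3 beside CX3CL1 and 7 with both agents against none, and 0 were called higher. The shares of all genes called lower were 1.94%, 0.935% and 3.72%. ELOVL6, a fatty acid elongase, went from 96.5 ± 6.34 to 42.3 ± 5.13 TPM, by -1.17 ± 0.15 (adjusted p = 2.0e-04). ACSS2, which makes acetyl-CoA from acetate, changed by -0.90 ± 0.15 (adjusted p = 0.00185), and FADS2, a desaturase, by -0.53 ± 0.08 (adjusted p = 0.00125). These 3 were also called lower beside CX3CL1, at -0.88, -0.87 and -0.38. FASN, the fatty acid synthase, was at -0.19 in both (adjusted p = 0.324 and 0.412). The isoprenoid branch leads to ubiquinone, dolichol and prenyl groups, and 5 of its genes were tested (GGPS1, PDSS1, PDSS2, DHDDS and COQ2). In either comparison that adds IFN-γ, 0 were called and 0 had an unadjusted p under 0.05, with values from -0.15 to 0.17. Of all 11878 genes tested, 932 and 558 were called, and 22.0% and 17.7% had such a p. With only 5 genes, these counts do not set the branch apart.

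**Figure D5:**
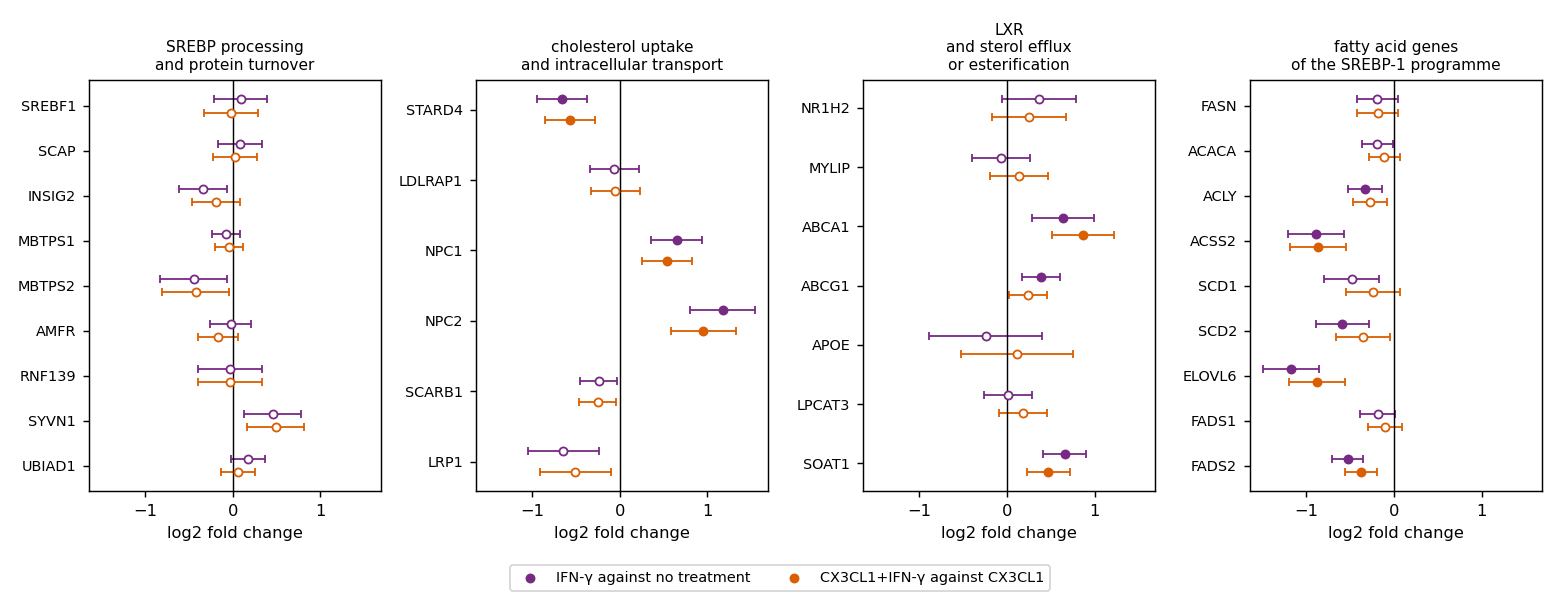
Log2 fold change of TPM + 1 with its 95% interval (horizontal axes) for 4 lists of related genes in the 2 comparisons that add IFN-γ, with filled points for called genes and open points for the rest. NPC1, NPC2, ABCA1 and SOAT1 lie above 0, STARD4, ACSS2, ELOVL6 and FADS2 lie below it, and none of the 9 genes of SREBP processing has a filled point.

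Over the 12 libraries the 8 genes varied together, as they share the IFN-γ difference and the libraries. The correlation of each with the mean of the other 7 (Pearson's r of log2(TPM + 1), as a description) ran from 0.787 for SREBF2 and 0.824 for IDI1 to 0.988 for LSS. Within groups the 8 genes shifted together in some libraries. All 8 of 8 were above the group mean in No treatment replicate 1. In replicate 2 of the No treatment, IFN-γ and CX3CL1+IFN-γ groups, 1 of 8 was above it. In the remaining libraries 3 to 7 of 8 were above it. The share of all genes above the group mean in each library was not counted. Of 10746 other genes whose mean reached 1 TPM, the 5 most like the mean pattern of the 8 included ACAT2 (r = 0.987), NSDHL (0.974), RPIA (0.973) and ACLY (0.972). RPIA is an enzyme of the pentose phosphate pathway and ACLY makes cytosolic acetyl-CoA from citrate. Of the 14 other cholesterol enzymes, 9 were among the 50 most alike, while LBR (0.643) and SC5D (0.613) ranked 801 and 948.

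Genes known to respond to the agents followed the labels. IRF1, which IFN-γ induces, rose by 2.31 on the log2 scale against untreated cells (adjusted p = 1.5e-04), and CXCL1 and NFKBIA, targets of NF-kB, by 6.17 and 2.25 with CX3CL1 (adjusted p = 6.9e-06 and 0.00131). CXCL1 also rose with IFN-γ alone, by 3.22 (adjusted p = 1.2e-04). Of 8 epithelial markers, EPCAM was listed at 0 in every library and KRT18 alone was above 1 TPM. KRT18 was at 45.3 ± 10.1 TPM without treatment and 27.5 ± 1.87 TPM with IFN-γ (adjusted p = 0.0346), and its part in the changes above was not tested. Of 4 mesenchymal markers, 0 were called in the single additions, but vimentin (VIM) and COL1A1 were called lower with both agents against none. VIM had means of 4174 ± 599, 3400 ± 422, 2899 ± 583 and 2360 ± 731 TPM (n = 3 each) in the No treatment, CX3CL1, IFN-γ and CX3CL1+IFN-γ groups, and log2 fold changes of -0.54 (adjusted p = 0.164) and -0.57 (0.176) in the comparisons that add IFN-γ. COL1A1 had means of 74.2 ± 14.4, 46.2 ± 8.29, 47.2 ± 8.97 and 31.1 ± 8.75 TPM in the same order, with -0.64 (0.0873) and -0.57 (0.16). The part of these markers in the changes above was not tested. Of 6 leukocyte markers, CD3E was listed at 0 throughout and PTPRC reached at most 0.0441 TPM, and CD68 alone passed the filter.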

How the data were processed

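Polyadenylated RNA of 12 cultures of CT26 cells was sequenced by the authors from strand-specific Kapa libraries, and reads were aligned to mm10 and counted per gene with STAR 2.7.3a in the VIPER pipeline. The deposited values are TPM, scaled by the authors to 1000000 in each library. The authors tested counts with DESeq2 1.22.1, but counts were not analysed here. The gene annotation, the strand setting and the conversion to TPM are not given in the sources used here. Without depth no counting error could be given, and an exact 0 can be a failed estimate. What separates biological replicates is not described further, so p-values measure the spread between these cultures.

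Groups were taken from the labels, and doses and time from the paper. Genes whose mean over all libraries reached 0.2 TPM entered limma 3.58.1 (R 4.3.3) as log2(TPM + 1), a pseudocount of 1. The model had 4 group means, 12 libraries and 8 residual degrees of freedom, and eBayes used a trend with intensity. Fold changes of low genes are understated on this scale. The fit was tested on simulated data. The Benjamini-Hochberg adjustment was made within each of 6 comparisons. Motifs, levels and figures were computed in Python 3.11.15 with pandas 2.3.3 and matplotlib 3.10.9. All 8 genes were named, with at most the 4 of smallest p and any called from each list of related genes, the 5 genes most alike in pattern and genes known to respond to the agents. Some genes that this rule covers are not reported here. Other list members named as not called or listed at 0, such as SCAP, SREBF1 and FASN, were chosen after their values were seen. The genes and lists were chosen with earlier results of these data known.

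The groups share replicate numbers in the labels. Deviations from the group means went together in same-numbered libraries for No treatment and IFN-γ (correlations across genes of 0.429, 0.46 and 0.22), for IFN-γ and CX3CL1+IFN-γ (0.63, 0.635 and 0.649) and for CX3CL1 and CX3CL1+IFN-γ (0.351, 0.353 and 0.428). This pairing rests on the correlations alone. Also tried were quantile normalization, median-ratio scaling, a pseudocount of 0.1, a filter at a mean of 1 TPM or none, the replicate block, no intensity trend, fits of only the libraries compared, leaving out each library and, for motifs, only the 250 bases before the start.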

Additional observations from a re-analysis of the deposited data

How the results depend on the processing

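The 7 genes kept a negative change in all 3 IFN-γ comparisons under every alternative run. Leaving out 1 library gave 6 to 7 of the 8 genes called against untreated cells and 6 to 7 with both agents against none. Beside CX3CL1 it gave 4 to 8, with 4 without CX3CL1+IFN-γ replicate 3 and 8 without CX3CL1 replicate 2. No filter gave 5 there and only the libraries compared gave 6. The groups of 3 and the unknown depth limit the precision.

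Calls over all genes moved more. The replicate block, for pairs of libraries with the same number, gave 455 for CX3CL1 and 1929 for IFN-γ against untreated cells, 95 for both agents against IFN-γ, 1369 against CX3CL1, 2464 against none and 52 for the interaction, where the counts without it were 232, 932, 43, 558, 1417 and 0. Numbers did not pair every library for CX3CL1 against no treatment (0.387, 0.005 and 0.301) or both agents against none (0.312, 0.447 and 0.032). The block changed no call of the 8 genes. For both agents against IFN-γ, no filter gave 28 and only the libraries compared gave 20. Against CX3CL1, the latter gave 344. Quantile normalization gave 1 interaction. Leaving out each library gave 152 to 268, 530 to 1499, 16 to 54, 270 to 668, 924 to 1892 and 0 to 11 calls for the 6 comparisons in this order. For IFN-γ against untreated cells, 530 were called without No treatment replicate 3, 551 without IFN-γ replicate 3 and 1499 without CX3CL1 replicate 2. No treatment replicate 3 also gave the 152. CX3CL1+IFN-γ replicate 3 gave the 16, 270 and 924. For both agents against IFN-γ, 17 were called without CX3CL1+IFN-γ replicate 1 or IFN-γ replicate 2, 26 without IFN-γ replicate 1 and 23 without IFN-γ replicate 3. The interaction gave 11 without No treatment replicate 1 and 1 without CX3CL1+IFN-γ replicate 2. The other enzymes called in both agents against IFN-γ were 0 to 1, with 1 without CX3CL1 replicate 2. The cause of these shifts was not tested, apart from fewer samples in the fits that leave libraries out.

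Signs turned only among values that were not called. HMGCS1 with CX3CL1 was -0.026 under quantile normalization. Leaving out 1 library, the CX3CL1 effect on untreated cells ran from -0.171 to 0.202 for HMGCS1, -0.044 to 0.365 for IDI1, -0.029 to 0.099 for FDFT1, -0.214 to 0.031 for SQLE, -0.028 to 0.119 for LSS, -0.141 to 0.017 for DHCR7 and -0.033 to 0.142 for SREBF2. Added to IFN-γ it ran from -0.067 to 0.088 for SQLE, -0.115 to 0.032 for LSS, -0.125 to 0.092 for DHCR7 and -0.059 to 0.015 for SREBF2. The interaction ran from -0.03 to 0.343 for HMGCS1, -0.212 to 0.239 for IDI1, -0.044 to 0.2 for SQLE, -0.066 to 0.151 for DHCR7, -0.162 to 0.014 for SREBF2 and -0.125 to 0.244 for INSIG1. Of the motif counts among the 6 promoters, each was equal with the 250 bases before the start alone.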
